A study of Rattus norvegicus with 2 samples.

Results

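Genes of adrenergic signaling, the arm of the stress response that uses adrenaline and noradrenaline, were examined in cervical lymph nodes of rats with and without restraint stress. The genes were 4 adrenergic receptors (Adrb1, Adrb3, Adra1a and Adra2a) and 5 genes that dampen the signal behind them (Crem, Sik1, Pde4b, Pde4d and Rgs2). They were chosen by name, with earlier results of these data known. Every noncontrol probe assigned to these 9 genes was used, which gave 21 of the 45598 probes on the array and 9 of 36174 gene names. RNA of male Sprague-Dawley rats aged 10 to 12 weeks was hybridized to 1 array for the control group (C) and 1 array for the group labeled restraint stress (RS). The labels give no duration of restraint, and the results of the study place the array comparison at its shortest restraint time. Its methods describe rats fastened in the supine position on a board. Halothane and an overdose of pentobarbital preceded the removal of the nodes. How many rats contributed to an array, and whether their RNA was pooled, is not given in the sources used here. With 1 array per group there was no replicate and no test, so every difference below describes these arrays.

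Noradrenaline from sympathetic nerves and adrenaline from the adrenal medulla act on adrenergic receptors. Beta receptors raise cyclic AMP (cAMP) through a stimulatory G protein, alpha-2 receptors lower it, and alpha-1 receptors signal through calcium. cAMP activates protein kinase A (PKA), which phosphorylates the transcription factor CREB, and CREB switches on genes with a cAMP response element in their promoters. Several of those genes feed back on the signal. Crem encodes, among other products, the repressor ICER, which occupies the same elements. Pde4b and Pde4d encode phosphodiesterases that break down cAMP. Sik1 encodes a kinase that keeps the coactivators of CREB out of the nucleus, and Rgs2 shortens the activity of G proteins. The beta-3 receptor is known best from fat cells of rodents.

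The probes are 60 bases long, and each of the 21 was printed in 1 spot. The sequences that carry the main results are those of Crem, whose transcripts end in alternative coding sequences for the DNA-binding domain, and of Pde4d, whose probes disagreed. The pair of Crem probes below each ended on a stop codon, shown in capitals, with no earlier stop in that frame. They had the same base at 39 of 60 positions. The files place them at chr17:62836355-62836414 and chr17:62835959-62836018, and the header names the build rn4.
Crem probe 3: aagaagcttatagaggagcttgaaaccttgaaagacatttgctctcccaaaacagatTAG
Crem probe 4: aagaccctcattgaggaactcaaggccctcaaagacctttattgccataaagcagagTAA

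The Pde4d probes below are assigned by the files to the same RefSeq transcript, at positions 204 and 2190 of it, and capitals mark G and C. Of the 60 bases, 46 (76.7%) were G or C in probe 1 and 27 (45%) in probe 5. The files place probe 1 in the unlocalized sequence of chromosome 18 (bases 264930 to 264989), and the other 5 Pde4d probes in that of chromosome 2, with probe 5 at bases 1584036 to 1584095. The Pde4d promoter windows described below lie on chromosome 2, so the placement of probe 1 differs from that of the gene. Probes of a gene are numbered by their mean signal over both arrays, so that probe 1 is the brightest.
Pde4d probe 1: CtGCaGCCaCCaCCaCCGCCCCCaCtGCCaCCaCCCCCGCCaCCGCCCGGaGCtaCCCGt
Pde4d probe 5: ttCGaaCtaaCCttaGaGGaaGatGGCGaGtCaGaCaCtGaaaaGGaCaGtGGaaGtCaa

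Each array value is the Cy3 intensity of a spot after background subtraction by the scanner software. For comparison, log2 intensities were shifted by the 75th percentile of each array, which was 189 for C and 176 for RS in intensity. A difference is the RS value minus the C value on that log2 scale. The spot error given with it combines the error estimates of the scanner software from either array, and a 95% spot interval is built from it. It covers the reading of the spots and not the spread between rats. Of all probes, the software marked 54.7% (C) and 54.9% (RS) as well above background, and no noncontrol spot was saturated. Of the 9 genes, 8 were well above background on both arrays with their brightest probe; Adra1a was not on either. In bulk tissue, fewer cells of a type and less RNA per cell cannot be told apart.

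Crem and Adrb3 were higher on the RS array by more than 2-fold, and none of the 9 genes was lower by that much. Over all 21096 genes well above background on at least 1 array, 3.46% were higher and 4.28% were lower by 2-fold or more. The median difference of the 8 screened genes was 0.29, compared with 0.016 over all screened genes. Pde4d entered this median at -0.51, the value of its brightest probe, which its other 5 probes did not share. Counted by probe, 11 of the 18 screened probes were higher by 2-fold, namely 5 of Crem, 5 of Pde4d and 1 of Adrb3, beside 3.3% of all screened probes. None of the 18 was lower by 2-fold, compared with 3.92% of all screened probes. The probes of a gene share its transcripts and are not independent of each other. The genes were chosen with earlier results of these arrays known, so the shares set beside them are description only.

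**Figure D1:**
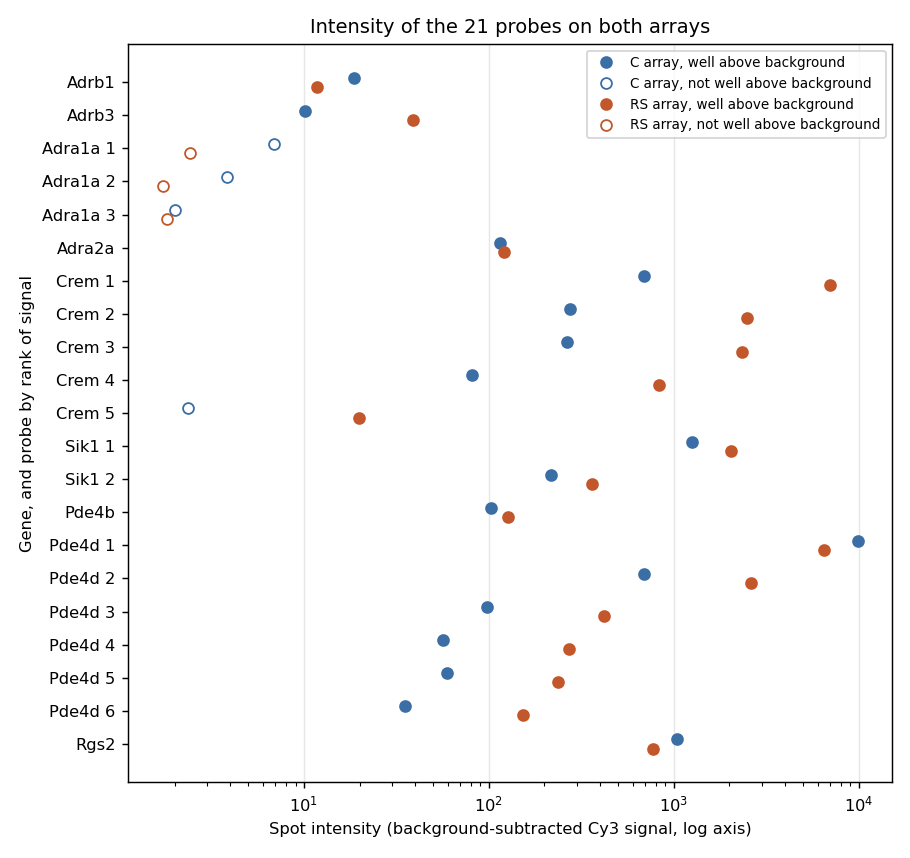
Background-subtracted Cy3 intensity (log axis) of each of the 21 probes on the C array (blue) and the RS array (orange); open circles were not well above background, and the number after a gene is the rank of its probe by signal. All 5 Crem probes and 5 of 6 Pde4d probes lie further right on the RS array, whereas the brightest Pde4d probe lies further left.

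Crem, the cAMP response element modulator, differed most among the 9 genes. The arrays do not show which start its transcripts used, nor whether they encode ICER or another product. The brightest Crem probe read 688 in intensity for C and 7049 for RS. The log2 difference was 3.46 (11.0-fold, spot error 0.20), which was the 19th largest increase of 10029 among genes that were well above background in C as well as RS.

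The next Crem probe had intensities of 275 and 2500, a 9.74-fold difference. Crem probe 3, the first of the pair shown above, had 264 and 2342 (9.50-fold). Crem probe 4, the other of that pair, had 81.5 and 837 (11.0-fold). The probes on alternative coding ends therefore differed between the arrays by log2 values of 3.25 and 3.46, each with a spot error of 0.20 or 0.21, so that their 95% spot intervals (2.85 to 3.65 and 3.05 to 3.86) overlapped.

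The dimmest Crem probe, placed furthest along the transcript of the 4 Crem probes assigned to it, read 2.35 in intensity for C, below the well-above-background level, and 20.0 for RS, above it. It was at least 2.26-fold higher, taken against the lowest C signal among probes well above background (an intensity of 9.45). With the normexp background correction described below for Adrb3, its bound was 0.40 on the log2 scale and no longer past 2-fold, whereas the other 4 probes differed by 2.81 to 3.33. All 5 Crem probes thus lay above their C values. The smallest difference among the 4 measured on both arrays was 3.25. CREB1 itself and the related activator ATF1 showed no such difference: Creb1 had intensities of 1184 and 1094 (log2 difference -0.015, spot error 0.20), and Atf1 had 3857 and 3616 (0.0054, spot error 0.14).

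**Figure D2:**
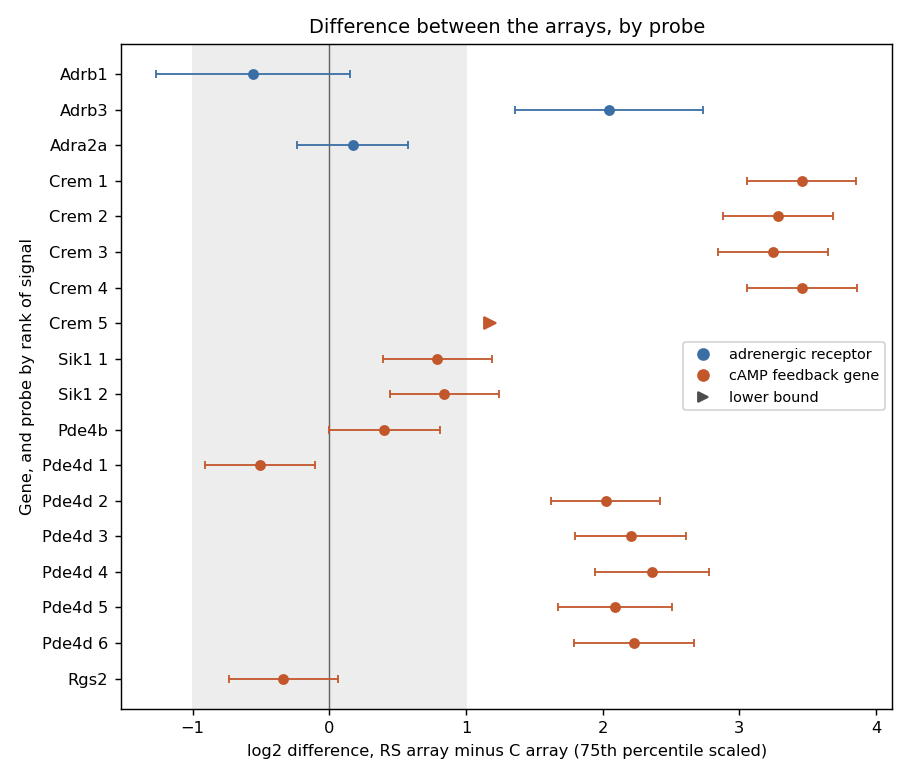
log2 difference (RS array minus C array) of the 18 screened probes, with bars for the 95% spot interval; blue marks receptors, orange marks feedback genes, and the triangle is a lower bound. The gray band spans 2-fold in each direction; 4 Crem probes lie between 3.25 and 3.46, and 5 Pde4d probes lie between 2.02 and 2.36.

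Pde4d encodes a phosphodiesterase specific for cAMP, and its probes disagreed. Probe 1, the sequence rich in G and C shown above, read 9897 for C and 6501 for RS in intensity (log2 difference -0.51, spot error 0.20). The other 5 probes ranged from 35.0 to 687 on the C array and from 153 to 2608 on the RS array.

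Each of these 5 was higher on the RS array, from 4.06-fold to 5.14-fold, with a median log2 difference of 2.21. With normexp they stayed past 2-fold, with smaller log2 differences of 1.27 to 1.92. Probe 5, assigned to the same transcript as probe 1, had intensities of 59.2 and 236 (log2 difference 2.09, spot error 0.21). The 95% spot interval of probe 1, from -0.91 to -0.11, lay below those of the other 5, the lowest of which began at 1.62.

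By the rule that the brightest probe stands for a gene, Pde4d was not past 2-fold. Without probe 1, a choice made after its value was seen, Pde4d was 4.06-fold higher, and 3 of the 9 genes were then past 2-fold. Among the 818 genes with 3 or more screened probes, the median gap between the brightest probe and the median of the others was 0.13 in size, and 5 of these genes (0.611%), Pde4d included, had a gap as large as the -2.71 of Pde4d. Probes with at least as much G and C as probe 1 made up 0.0702% of the array. Of the 25 that were screened, 19 were lower on the RS array, 0 were 2-fold higher and 1 was 2-fold lower, with a median difference of -0.28. Over all screened probes, 3.3% were 2-fold higher and 3.92% were 2-fold lower. By brightest probes, 10095 of the 21086 screened genes with a value were below 0, with a median of 0.016. The part of base composition in the Pde4d disagreement was not tested, and whether probe 1 also binds other transcripts was not checked here, so that the value of -0.51 may not be that of Pde4d alone.

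Sik1, the salt-inducible kinase, was higher on the RS array with both of its probes, although by less than 2-fold. Sik1 probe 1 had intensities of 1264 and 2040, a 1.73-fold difference (log2 0.79, spot error 0.20). Sik1 probe 2 had 217 and 364, which was 1.79-fold (log2 0.84, spot error 0.20). The 95% spot intervals, 0.39 to 1.19 and 0.44 to 1.24, lay above 0. The related kinase Sik3 had intensities of 479 and 469 (log2 difference 0.066).

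Pde4b, a phosphodiesterase of the same family as Pde4d, was represented by 1 probe with intensities of 102 (C) and 126 (RS). Its log2 difference of 0.40 had a 95% spot interval from -0.0027 to 0.81. Rgs2 had intensities of 1044 and 773, a log2 difference of -0.34 with an interval from -0.74 to 0.064. Both intervals included 0. On rn4 the files place the Pde4b probe at chr5:123533360-123533419 and the Rgs2 probe at chr13:57891896-57891955. By their brightest probes, the feedback genes thus ranged from 11.0-fold higher (Crem) to 1.42-fold lower (Pde4d) on the same pair of arrays. That low value may not be of Pde4d alone, and the other 5 Pde4d probes were 4.06-fold to 5.14-fold higher. With the brightest Pde4d probe left out, Rgs2 was the lowest, 1.26-fold lower with an interval that included 0.

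Among the receptors, Adrb3 was the one with a large difference. The beta-3 receptor gene was dim: its probe, at chr16:69166311-69166370 on rn4, had a C intensity of 10.1, close to the lowest signal well above background (9.45), and an RS intensity of 38.9. The log2 difference was 2.05 (4.13-fold), with a spot error of 0.35 and a 95% spot interval from 1.36 to 2.73. Adrb3 belonged to the dimmest quartile of screened genes, in which 6.2% were higher by 2-fold or more. With the normexp background correction, which puts an offset on each signal, the difference was 0.58 and no longer past 2-fold.

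Genes of fat cells were also higher on the RS array, where 3.46% of all screened genes were higher by 2-fold or more. Of 11 fat cell markers, 9 were well above background, all on both arrays, and 7 of these 9 were higher on the RS array by 2-fold or more, with a median log2 difference of 1.80 (7 and 1.38 with normexp). Summed over all 11 before scaling, the intensity was 9743 for C and 22951 for RS. Adipoq (adiponectin) had intensities of 420 and 2615 (6.67-fold), Cfd (adipsin) 5251 and 10400 (2.12-fold), and Lpl (lipoprotein lipase) 2794 and 4355 (1.67-fold). Plin1 and Pck1 did not reach the well-above-background level on C or RS. Of 6 brown fat markers, 4, including Ucp1, did not reach that level on C or RS, Cidea was 3.32-fold higher (a call lost with normexp), and Cox8b differed by -0.24 on the log2 scale. The part of fat cells in the Adrb3 difference was not tested, nor was it for Pde3b, described below.

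Adrb1, the beta-1 receptor gene, was dim on both arrays, with intensities of 18.6 and 11.8 for its probe at chr1:263026996-263027055. Its log2 difference of -0.56 had a 95% spot interval from -1.27 to 0.15, which included 0. The probe for Adra2a, the alpha-2A receptor gene, had intensities of 116 and 122, a log2 difference of 0.17 with an interval from -0.23 to 0.57. All 3 probes for Adra1a, the alpha-1A receptor gene, were below the well-above-background level on both arrays. They had intensities of 6.91, 3.82 and 2.01 on the C array and 2.41, 1.73 and 1.82 on the RS array, and no difference is given for them.

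The other members of the receptor family put these values in context. Adra1d was 2.37-fold lower, with intensities of 48.0 and 18.9 (log2 difference -1.25, spot error 0.27), a call that was lost with normexp. Adra1b (201 and 187) and Adra2b (41.3 and 36.7) differed by -0.0043 and -0.073, and Adra2c was not well above background. Of the 9 receptor genes, 7 were screened, with a median of -0.073. Of these 7, 1 was higher by 2-fold (Adrb3), 1 was lower (Adra1d), and 5 were within 2-fold. The shares over all screened genes were 3.46% higher and 4.28% lower. Signals of different probes cannot be ranked as transcript levels.

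Between the receptors and CREB, no screened gene of the signaling machinery was past 2-fold by its brightest probe. Of all screened genes, 7.74% were past 2-fold in either direction, so a count of 0 in lists this short says little. None of the 7 receptor kinases and arrestins, which switch receptors off, was past 2-fold (median -0.16; largest difference 0.31, for Arrb2). None of the 7 screened G protein alpha subunits was past 2-fold (median -0.021; largest difference -0.63, for Gnal). Of the 8 screened adenylyl cyclases, which make cAMP, none was past 2-fold (median -0.11), and Adcy1, above background on the RS array only, was at least 1.72-fold higher. None of the 10 screened PKA subunits, PKA inhibitors and Epac genes was past 2-fold (median -0.048). By brightest probes, the largest difference was -0.69, for Rapgef3. The PKA inhibitor gene Pkib was higher with both of its probes, at 0.63 (676 and 976) and 0.96 (314 and 570).

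The list of the CREB family, its coactivators and SIK kinases held 10 screened genes (median 0.072). Crem alone was higher by 2-fold and none was lower, beside 3.46% and 4.28% of all screened genes. The coactivators Crtc1 (306 and 259), Crtc2 (370 and 367), Crtc3 (122 and 100), Crebbp (1195 and 1321) and Ep300 (1469 and 1447) had differences between -0.19 and 0.24.

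Phosphodiesterases that act on cAMP lay on the higher side. Of the 10 screened of 16 genes, 9 were above 0 and 1 was higher by 2-fold, with a median of 0.49. Over all screened genes, 10991 of the 21086 with a value were above 0, 3.46% were higher by 2-fold or more, and the median was 0.016. Pde1c (9.08 and 13.8) was well above background on the RS array only, so its lower bound could only lie above 0. The gene past 2-fold was Pde3b, the phosphodiesterase through which insulin acts in fat cells, with intensities of 58.9 and 120 (log2 difference 1.12, spot error 0.21). The exception below 0 was Pde4d with its brightest probe, and with that probe left out 2 genes were past 2-fold. With normexp the median was 0.21 and none was past 2-fold.

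Among the R4 family of RGS proteins, to which Rgs2 belongs, 8 of 10 were screened and 1 was past 2-fold. The share over all screened genes, in either direction, was 7.74%. Rgs1, known from activated B cells, was 3.24-fold higher, with intensities of 1138 and 3439 (log2 difference 1.69, spot error 0.20). Rgs16 (518 and 875) was 1.81-fold higher with its brightest probe, whereas its other probe had 17.1 and 15.7. Rgs3 (1574 and 880) was 1.67-fold lower, and its other screened probe (418 and 179) differed by -1.13 on the log2 scale. The median of this list was 0.29.

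Genes known as CREB targets were mostly higher. Of 18 listed, which include the 5 feedback genes, 16 were screened, 11 were higher by 2-fold and none was lower, with a median of 1.94 (with normexp, 10 were higher and the median was 1.21). Over all screened genes, 3.46% were higher and 4.28% were lower by that much, with a median of 0.016. Fos, Fosb and Areg were well above background on the RS array only, so that they could only count as above 0. The list was drawn up with earlier results on immediate early genes of these arrays known, and most of its members also respond to other signals. Nr4a1, an orphan nuclear receptor, had intensities of 477 and 1231 (2.76-fold). Cebpb, a transcription factor of inflammation and fat cell development, had 438 and 1849 (4.52-fold). Ptgs2, the inducible cyclooxygenase, had 14.6 and 173 with its brightest probe (12.7-fold). Junb had 115 and 318 (2.95-fold), Per1 had 818 and 2742 (3.59-fold), Nr4a2 had 39.0 and 149 (4.09-fold), and Dusp1 had 17.4 and 76.4 (4.71-fold). Nr4a3 had 31.1 and 413 (14.2-fold), Fos had 11.4 and 84.3 (7.89-fold), and Fosb had 9.94 and 498 (53.7-fold). The C signals of Fos and Fosb were not marked well above background but exceeded the lowest C signal that was (9.45). Their folds are therefore plain ratios to a signal not well above background, with spot errors of 0.25 and 0.36. Of the 5 screened targets that were not past 2-fold, 4 were feedback genes described here (Sik1, Pde4b, Rgs2, and Pde4d with its brightest probe), and the other was Areg, at least 1.20-fold higher.

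Genes that make, store or break down catecholamines showed no difference past 2-fold, compared with 7.74% of all screened genes. Of 11 listed, 8 were screened, with a median of 0.033. Th, the rate-limiting enzyme of their synthesis, had intensities of 137 and 131 (log2 difference 0.025), and Pnmt, which makes adrenaline, had 95.2 and 46.9 (-0.92, spot error 0.22). Dbh, which makes noradrenaline, and its transporter Slc6a2 were below the well-above-background level on C and RS.

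**Figure D3:**
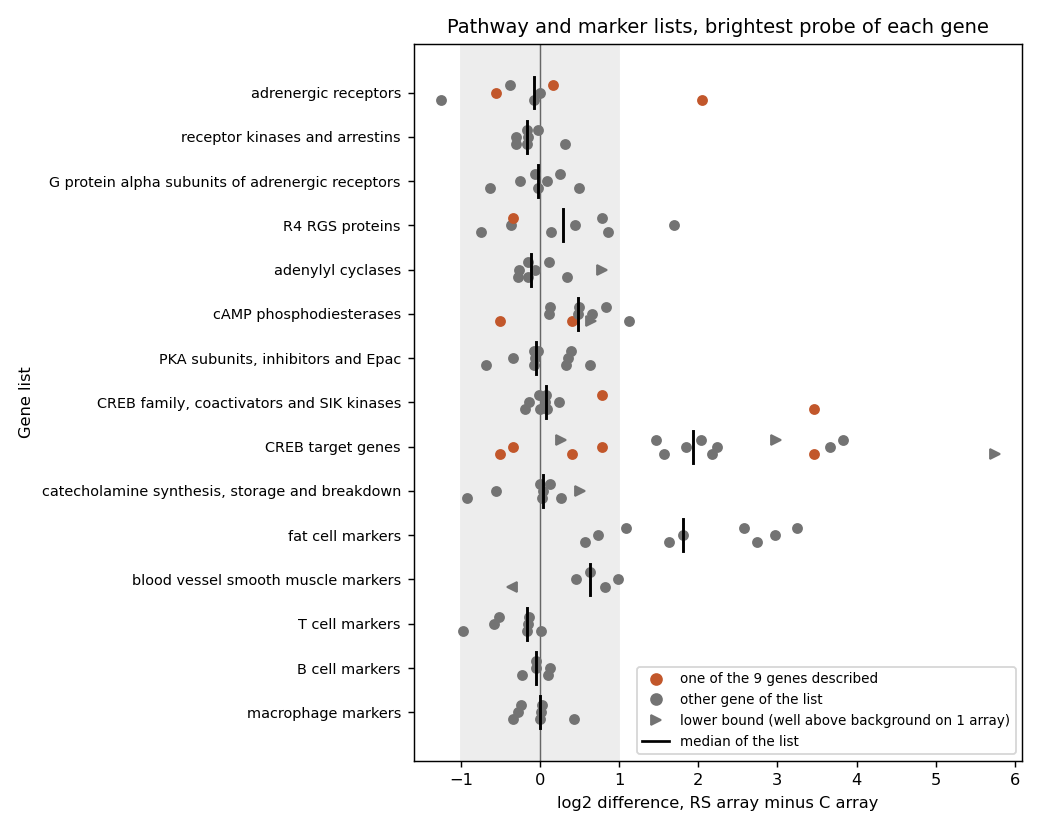
log2 difference (RS array minus C array) of the brightest probe of each screened gene in 10 pathway lists and 5 marker lists, with the 9 described genes in orange, list medians as black bars, and triangles for lower bounds. The gray band spans 2-fold in each direction; the medians of the CREB target list (1.94) and the fat cell list (1.80) lie outside it.

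Markers of the node itself were present on both arrays. All 7 T cell markers (median -0.16), 5 B cell markers (median -0.049) and 7 macrophage markers (median -0.0022) were well above background on both arrays and within 2-fold. Examples were Cd3g (13692 and 11604), Cd79b (5532 and 4993) and C1qb (14243 and 13456). Of the 7 T cell markers, 6 were below 0, with Cd5 (471 and 225) the lowest at -0.97. With quantile normalization, and likewise without normalization, 1 T cell marker was 2-fold lower. Summed intensities were 31249 and 26144 for T cell markers, 14998 and 14167 for B cell markers, and 24007 and 22091 for macrophage markers. These sums were taken before scaling, with a 75th percentile of 189 on C and 176 on RS, and are dominated by the brightest probes. The 5 blood endothelial markers were also within 2-fold (median 0.0048; Pecam1 2242 and 2101). Smooth muscle markers of blood vessels had a median of 0.63, with Tagln at 298 and 492, and 0 of 5 were past 2-fold. All 5 screened erythrocyte markers were higher by 2-fold (median 2.60; Hba1 5953 and 33805), 3 of them with normexp (median 1.47), and their part in the differences above was not tested. Of platelet (3 screened, median 0.43), skeletal muscle (4, median 0.011), salivary gland (1, -0.61) and neuron markers (3, median 0.025), none was past 2-fold. The share past 2-fold in either direction was 7.74% over all screened genes.

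The promoter windows of the genes were searched for the cAMP response element because Crem and Pde4d are known to be driven through it. RefSeq windows of build GRCr8, from 250 bases before to 50 after a transcript start, were held for 7 of the 9 genes, 14 windows in all; none was held for Adrb3 and Adra1a. The full element, TGACGTCA, reads the same on both strands and was present in 2 of the 14 windows, compared with 1.83% of all 33469 windows. Both belong to Crem, 1 with the element at position -56 from the start and 1 with the element at -35 and again at 40. The shorter form TGACG, searched on both strands, is part of the full element and was present in 21.2% of all windows.

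The stretches before these Crem starts and part of the Sik1 window are shown with the matches in capitals. They lie at chr17:58984697-58984796 and chr17:58985390-58985489 on the forward strand and at chr20:9958807-9958856 on the reverse strand. The Crem stretches run from 100 bases before the start to the base before it, and the Sik1 stretch holds both of its matches.
Crem start 2: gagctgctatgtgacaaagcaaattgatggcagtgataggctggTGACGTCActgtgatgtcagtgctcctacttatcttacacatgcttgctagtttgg
Crem start 3: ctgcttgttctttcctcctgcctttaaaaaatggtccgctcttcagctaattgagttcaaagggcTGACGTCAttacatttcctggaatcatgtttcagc
Sik1: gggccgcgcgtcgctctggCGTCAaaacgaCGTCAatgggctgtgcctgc

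Without the full element, the shorter form lay at 2 places in the Sik1 window, at -191 and -180 from the start. It lay at 2 places in the window of the first Crem start, in 2 of the 5 Pde4d windows, and in the single windows of Rgs2 and Adrb1. Neither Pde4b window and not the Adra2a window held it. The letters describe the sequence around annotated starts, and the arrays do not show which start was used.

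**Figure D4:**
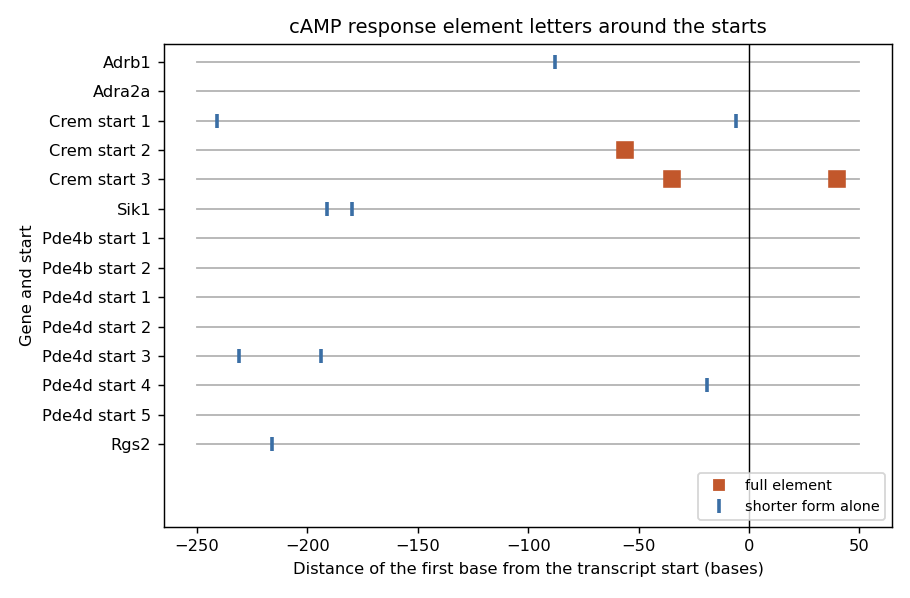
Position of the first base of each match, in bases from the transcript start (negative before it), in the 14 promoter windows of 7 genes; orange squares are the full cAMP response element and blue ticks the shorter form alone. The 3 full elements lie in 2 of the 3 Crem windows, at -56, -35 and 40.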

How the data were processed

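The authors labeled cervical lymph node RNA with Cy3, hybridized it to Agilent SurePrint rat arrays, and deposited the spot intensity values of Feature Extraction 11.5.1.1, with background subtracted within the array. They also deposited a log2 table, whose scale is not stated with it. For 100% of 45598 probes it lay within 0.1 log2 units of the scaled values described next, with medians of -3.51 (C) and -3.54 (RS), and it served as an alternative.

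Control and outlier spots (489 on the C array, 660 on the RS array) were left out, repeated spots were averaged per probe on the log2 scale, and the 75th percentile of each array was subtracted, as in the study, whose threshold of 2-fold was also kept. A probe counted as well above background when more than 50% of its spots were marked so. The brightest probe stood for a gene. Where only 1 array was above background, the fold was taken against the higher of the dim signal and the lowest signal above background on the array of the dim signal (9.45 on C, 8.52 on RS). It is a lower bound where the dim signal was the lower of these, and a plain ratio otherwise. Probes with 10 spots had, on the C array, a median SD between spots of 0.22 log2 units at intensities of 8 to 32 and 0.052 at 512 or more. Precision is limited by having 1 array per group.

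All probes of the 9 genes were named. Of the 10 pathway lists, genes past 2-fold were named, or the largest difference where there was none, and up to 3 bright genes of each of 12 marker lists. A few further genes (such as Creb1, Atf1, Sik3, the coactivators and Rgs16) were named after their values were seen. Sik2, Cd79a, Itga2b and Dcpp were not analysed here. Some listed genes are not reported here. The members and lists were chosen with earlier results of these data known. The alternatives were 4 other scalings, normexp (limma, offset 50), the deposited table, the mean over probes, outlier spots kept, plain ratios in place of bounds, only genes above background on both arrays, no background filter, probes with 6 or more alternating A and G bases left out, and counting only differences whose 95% spot interval leaves out 0; leaving out Pde4d probe 1 was added after the data were seen. Simulated arrays with known changes were used to test the calculation. R 4.3.3, limma 3.58.1, Python 3.11.15, numpy 2.4.6, pandas 2.3.3 and matplotlib 3.10.9 were used.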

Additional observations from a re-analysis of the deposited data

How the results depend on the processing

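No paired analysis was possible because a group held a single array. Crem stayed past 2-fold under all 13 alternatives that recomputed it (log2 differences from 2.93, with the mean over its probes, to 3.48), and Sik1 (0.69 to 0.84), Adra2a (0.071 to 0.20), Pde4b (0.28 to 0.43), Rgs2 (-0.43 to -0.31) and Adrb1 (-0.66 to -0.069, the last with normexp) kept their direction and stayed within 2-fold. Adrb3 was past 2-fold except with normexp (0.58), so that 1 of the 9 genes was then 2-fold higher. Normexp also gave medians of 0.21 for phosphodiesterases and 1.21 for CREB targets, and 234 higher and 378 lower genes; it adds an offset to every signal, which shrinks differences of dim genes by construction. Pde4d changed direction with the mean over its probes (1.73) and without its brightest probe (2.02), since the others were higher. Without a background filter, 36174 genes entered, 2031 were higher and 2148 lower, and Adra1a, at -1.42, was the 1 member 2-fold lower, from signals not above background on either array. Lower genes numbered 601 with genes above background on both arrays only and 498 without probes of alternating A and G, which include Sik1 probe 1. With those probes left out, 59.0% of the genes past 2-fold were higher, compared with 44.7%. The median over all genes moved by less than 0.1 log2 units under the other scalings. Signal over background limits Adrb3, Adrb1 and Adra1a most.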
